A study of Rattus norvegicus with 18 samples.

Results

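The small RNAs of rat forebrain at embryonic day 13 (E13) were compared with those of rat somatosensory cortex at embryonic day 17 (E17). The 4 libraries of this comparison were chosen by their labels out of 18 libraries of the series, which follows cortical tissue through 8 stages from embryo to postnatal life. Each stage was 1 tissue sample, or 2 at birth (P0), of Sprague Dawley rats, an outbred laboratory strain, with no treatment or altered gene, and each tissue sample was sequenced in 2 runs on the Illumina Genome Analyzer II after total RNA had been extracted with TRIzol and small RNAs had been cut from a gel. The sources used here give no sex and no number of embryos behind a tissue sample. The labels name the E13 tissue forebrain and the E17 tissue somatosensory cortex, and the study's methods give whole cortex at E13 and the dorsolateral, mainly somatosensory part at E17, with meninges and subcortical tissue removed. Stage and dissected tissue therefore changed together, and a difference between the stages cannot be told apart from a difference between the tissues taken. In bulk tissue, fewer cells of a type and less RNA per cell cannot be told apart either.

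The 2 runs of a stage are repeat sequencing of 1 tissue sample and not separate animals, so no p-value was computed between the 4 libraries. A level is given as TPM, the reads of a miRNA in each 1000000 clean reads of its library. Levels were compared within run 1 and within run 2, and a miRNA was called higher or lower at E17 where the ratio of E17 to E13 passed 2-fold in the same direction in both runs. A miRNA entered the comparison where it had at least 10 reads in both runs of a stage, and counts below 3 were set to 3 in the ratio. A tag counted at a stage where both of its runs held it. Reads in tags of a single run were not counted for a miRNA, so no read means no read in a tag that both runs held.

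MicroRNAs are short RNAs, cut from hairpin precursors, that guide silencing complexes to messenger RNAs. Bases 2 to 8 of a miRNA, the seed, account for most of its pairing with targets, so miRNAs with a common seed are grouped as a family. Between these stages the cortical wall of the rat passes from mostly dividing progenitors to a tissue in which neurons are produced and migrate. The let-7 family accumulates as animal tissues differentiate, miR-124 and miR-128 are abundant in neurons, and the miR-17-92 family is abundant in dividing cells. Other miRNAs mark tissues around or outside the cortex, such as miR-199a and miR-214 in mesenchyme, miR-1 and miR-206 in muscle, the miR-200 family in epithelium, the miR-183 cluster in sensory organs, and miR-10 in tissue that expresses Hox genes.

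The mature sequences on which the results turn are printed 5′ to 3′ with the seed in capitals. They come from the RefSeq miRNA table of the rat assembly GRCr8, except miR-124, which was assembled from the study's primers. The first are miRNAs of differentiating tissue and neurons, of which let-7b and let-7c have the same seed.

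let-7b-5p: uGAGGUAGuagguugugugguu
let-7c-5p: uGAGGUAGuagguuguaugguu
miR-128-3p: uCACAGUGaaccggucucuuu
miR-132-3p: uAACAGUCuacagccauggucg
miR-124: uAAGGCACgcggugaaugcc

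The next are 10 of the 20 miRNAs that were lower at E17 by a ratio of 16 in both runs, shown as examples of the tissues they are known from, and of these miR-206 and miR-1 have the same seed. The capitals mark the seed of the RefSeq sequence, and for miR-217-5p and miR-214-3p many E13 reads began at another base, as given with the 5′ ends.

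miR-199a-3p: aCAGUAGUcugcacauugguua
miR-199a-5p: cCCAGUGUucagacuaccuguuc
miR-214-3p: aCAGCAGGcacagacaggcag
miR-206-3p: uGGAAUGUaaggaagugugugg
miR-1-3p: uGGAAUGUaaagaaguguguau
miR-184: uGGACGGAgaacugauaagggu
miR-182: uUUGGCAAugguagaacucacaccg
miR-183-5p: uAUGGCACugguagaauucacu
miR-217-5p: uACUGCAUcaggaacugacugg
miR-10a-5p: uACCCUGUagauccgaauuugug

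The last are 3 miRNAs of the imprinted Dlk1-Dio3 region, shown because most tested miRNAs of that region were lower at E17.

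miR-127-3p: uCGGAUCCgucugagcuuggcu
miR-494-3p: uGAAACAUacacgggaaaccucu
miR-541-5p: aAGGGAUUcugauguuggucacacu

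The E13 libraries held 7141578 clean reads in run 1 and 12769251 in run 2, and the E17 libraries 9131376 and 13830486. The reads of 793 sequences were counted, made up of 692 mature miRNAs of RefSeq, 2 sequences from primers and 99 candidate miRNAs listed by the study. Reads counted for miRNAs made up 72.8% and 65.2% of clean reads at E13, below the 86.3% and 88.0% at E17. At E10 they made up 83.4% and 75.1%, and in the postnatal libraries 82.4% to 89.6%. Tags of 22 nt held 24.9% and 33.8% of clean reads at E13 and 31.4% and 36.9% at E17, the peak length in all 4 libraries. Tags that fitted several miRNAs held 1.32% to 2.54% of the reads of these libraries and were counted for none.

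The E17 libraries were also more concentrated on a few miRNAs. The 10 most abundant miRNAs took 59.8% and 70.2% of the miRNA reads at E13 and 77.1% and 80.9% at E17. At E13, 123 miRNAs reached 100 TPM in both runs, against 98 at E17, while 8 miRNAs reached 10000 TPM at E13 and 10 at E17. TPM divides by all clean reads of a library, so a ratio of TPM also moves with what the rest of each library holds.

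Of 429 miRNAs compared, 11 were higher at E17 (2.56%) and 150 were lower (35.0%), and 268 passed in neither direction. The median log2 ratio was -1.04 in run 1 and -0.69 in run 2, so that the middle miRNA was 2.05-fold and 1.61-fold lower at E17. After each run's ratios were centred on that median, 50 miRNAs were higher (11.7%) and 75 lower (17.5%), and scaling by TMM, which assumes that most miRNAs keep their level, gave 52 higher and 74 lower. Counts are therefore given on the TPM scale first and after centring second. The library sizes alone cannot show which scale follows the amount of a miRNA per cell.

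The runs did not always give the same ratio. The ratios of run 1 and run 2 had a Pearson correlation of 0.82 over the 429 miRNAs, which share their libraries and are not independent. The sign differed between the runs for 99 miRNAs, and for 137 (31.9%) the ratios lay more than 1 log2 unit apart. Both E17 libraries lay above both E13 libraries for 20 miRNAs and below both for 168, and the stages overlapped for the other 241. No read was counted in either E17 library for 12 of the miRNAs, whereas 0 had this pattern at E13.

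**Figure D1:**
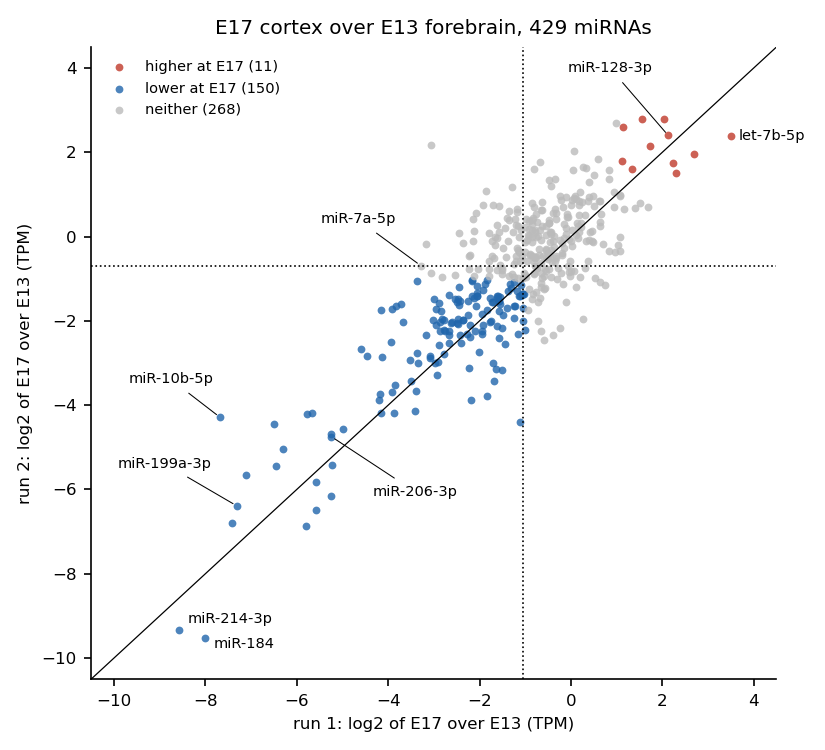
Log2 ratio of TPM at E17 over E13 in run 1 (x axis) and run 2 (y axis) for 429 miRNAs, with the diagonal as a line and the run medians of -1.04 and -0.69 dotted. The 150 lower miRNAs reach below -8 in both runs with miR-214-3p and miR-184 at the far end, and the 11 higher ones lie between 1.11 and 3.51 in run 1.

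The 2 P0 samples, separate tissue samples of 1 stage and 1 tissue, gave the only measure of how far samples of one kind differ. Under the same rule 18 of 378 miRNAs were higher (4.76%) and 83 lower (22.0%) in the second P0 sample, with medians of -0.95 and -0.56, and 38 and 34 after centring. In all 37.5% of miRNAs passed a ratio of 2 between E13 and E17 and 26.7% between the P0 samples, so calls at this ratio were common between samples of 1 stage too. At a ratio of 4, 15.9% of miRNAs passed between E13 and E17 (3 higher and 65 lower) and 7.67% in the P0 pair (7 higher and 22 lower). At a ratio of 16, 20 miRNAs were lower between E13 and E17 and 1 in the P0 pair, and 0 were higher in either. After centring 12 were higher and 35 lower at a ratio of 4, against 11 and 12 in the P0 pair, so that rises of this size were about as common between samples of 1 stage. At a ratio of 16 13 were lower after centring, with 0 in the P0 pair. Between other stages a ratio of 16 was passed by 9 miRNAs from E10 to E13, by 0 and 1 from E17 to the P0 samples, by 1 from P3 to P7, by 0 from P7 to P14 and by 1 from P14 to P28. Of the 150 lower miRNAs, 97 could be compared in the P0 pair and 32 were lower there too, and of the 11 higher ones 1 was higher and 3 were lower there.

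A model over all 9 tissue samples gave the formal test of the same contrast. The edgeR quasi-likelihood test, on counts summed over the runs, had its spread from the P0 pair alone, with 1 residual degree of freedom. It called 0 of 520 miRNAs (0.0%) at a Benjamini-Hochberg adjusted p of 0.05, with 25 at an unadjusted p under 0.05. The lowest adjusted p was 0.235, for miR-184 and miR-214-3p, both lower at E17. DESeq2 called 17 miRNAs on the same counts, 3 higher and 14 lower, among them let-7b-5p (adjusted p 0.0431) and miR-128-3p (0.0422) as higher and miR-199a-3p (1.96e-06) and miR-184 (2.41e-07) as lower.

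let-7b-5p rose most of the miRNAs above 100 TPM. Its level was 2854 and 16997 TPM in the E13 libraries and 32591 and 89414 TPM in the E17 libraries. Both E17 libraries lay above both E13 libraries, although the runs of a stage were themselves several-fold apart. Within the runs let-7b-5p was 11.4-fold and 5.26-fold higher at E17. It is encoded on chr7:118684044-118684065 of GRCr8, and no gene of the RefSeq table other than miRNA genes spans it. Its edgeR adjusted p was 0.979.

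miR-128-3p was the only other riser above 100 TPM in both E17 libraries. miR-128 is a neuronal miRNA made from a pair of loci inside the protein-coding genes R3hdm1 and Arpp21. Its level was 7575 and 2546 TPM at E13 and 33197 and 13435 TPM at E17, with no overlap between the stages. The ratios were 4.38 and 5.28, close to each other. Its precursor's other arm, miR-128-2-5p, moved with it, from 19.9 and 11.4 TPM at E13 to 81.9 and 78.7 TPM at E17. This arm belongs to the locus inside Arpp21 alone.

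miR-132, a miRNA induced by neuronal activity, was called higher on both arms at levels near detection. miR-132-3p had 12 and 11 reads at E13 and 72 and 40 reads at E17, which is 1.68 and 0.861 TPM against 7.88 and 2.89 TPM. Both E17 libraries were above both E13 libraries, and the ratios were 4.69 and 3.36. miR-132-5p had 2 and 4 reads at E13 and 25 and 17 at E17, too few at E13 for a reliable ratio. miR-212-3p, from the same cluster, had no read at E13 and 0.876 and 0.506 TPM at E17, under the minimum for a call.

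The other 6 risers were also rare. miR-193b-5p had 4.48 and 16.7 TPM at E13 and 22.0 and 47.3 TPM at E17, and miR-193b-3p, from the same precursor, had 4.06 and 5.25 TPM at E13 and 8.76 and 18.1 TPM at E17. Both arms of miR-193b were thus higher in both runs, by 2.16-fold to 4.91-fold. miR-497-5p was 2.52-fold and 3.06-fold higher, from 3.22 and 3.76 TPM to 8.10 and 11.5 TPM. The remaining 3 were miR-99a-3p, miR-98-3p and let-7i-3p, each under 10 TPM in all 4 libraries. After centring and under TMM all 11 were still called higher.

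The summed level of the let-7 list, which leaves out let-7g, was higher at E17 in both runs, by log2 ratios of 0.99 and 0.80 that stayed under 2-fold. The 9 miRNAs with the let-7 seed, let-7g-5p included, gave 0.99 and 0.80 as well. Of 13 tested members 3 were higher (let-7b-5p, let-7i-3p and miR-98-3p) and 0 lower, where 2.56% of all 429 miRNAs were higher and 35.0% lower. After centring 11 of the 13 were higher, against 11.7% of all. The median log2 ratio was 1.08 in run 1 and 0.96 in run 2, beside medians of -1.04 and -0.69 over all 429 miRNAs. Summed over the listed members, let-7 took 247932 and 348045 TPM at E13 and 493870 and 604746 TPM at E17. In the P0 pair 0 of 14 let-7 members were higher and 4 were lower, near the 4.76% and 22.0% of all miRNAs in that pair. After centring 1 was higher and 0 lower, beside 38 higher and 34 lower of all 378.

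let-7c-5p was the most abundant miRNA at both stages. It had 112323 and 156434 TPM at E13 and 236874 and 312155 TPM at E17, with both E17 libraries above both E13 libraries. The log2 ratio was 1.08 in run 1 and 0.997 in run 2, the latter just short of the limit of 1, so that let-7c-5p was not called. let-7a-5p, in contrast, had 46030 and 72709 TPM at E13 and 62933 and 79707 TPM at E17, and its stages overlapped. let-7e-5p had 42623 and 39888 TPM at E13 and 42039 and 20952 TPM at E17, and was the tested 5p member with the lowest ratios. Members of this one seed family thus had ratios from below 1 to 11.4. Their sequences differ by few bases, so their levels are uncertain where a sequencing error turns one into another.

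The list of neuronal and maturation miRNAs was mixed on the TPM scale. Of 33 tested members 4 were higher (the miR-128 and miR-132 arms named above) and 4 lower, against 2.56% and 35.0% of all miRNAs, and after centring 14 were higher and 0 lower, against 11.7% and 17.5%. The medians were 0.11 and 0.53. In 10 of the 33 both E17 libraries lay above both E13 libraries, and in 4 below, where all 429 miRNAs held 20 above and 168 below. The P0 pair gave 1 higher and 12 lower of 38 for this list, beside 4.76% and 22.0% of all. After centring 2 were higher and 5 lower, beside 38 higher and 34 lower of all 378 miRNAs of that pair.

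miR-124, the most abundant miRNA of mature neurons, had 15533 and 16895 TPM at E13 and 23846 and 30521 TPM at E17. The stages did not overlap, and the ratios of 1.54 and 1.81 stayed under 2-fold. miR-9a-5p, which is expressed in neural progenitors and in neurons, had 22812 and 14349 TPM at E13 and 23420 and 43078 TPM at E17. Its ratio was 1.03 in run 1 and 3.00 in run 2, so the runs did not give one answer. miR-125b-5p had 12267 and 2619 TPM at E13 and 21811 and 7791 TPM at E17, with 1.78-fold and 2.97-fold higher values. Of the 4 lower members miR-135a-3p was the only one above 100 TPM, at 2331 and 1201 TPM in E13 and 560 and 455 TPM in E17, and it passed in neither direction after centring.

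**Figure D2:**
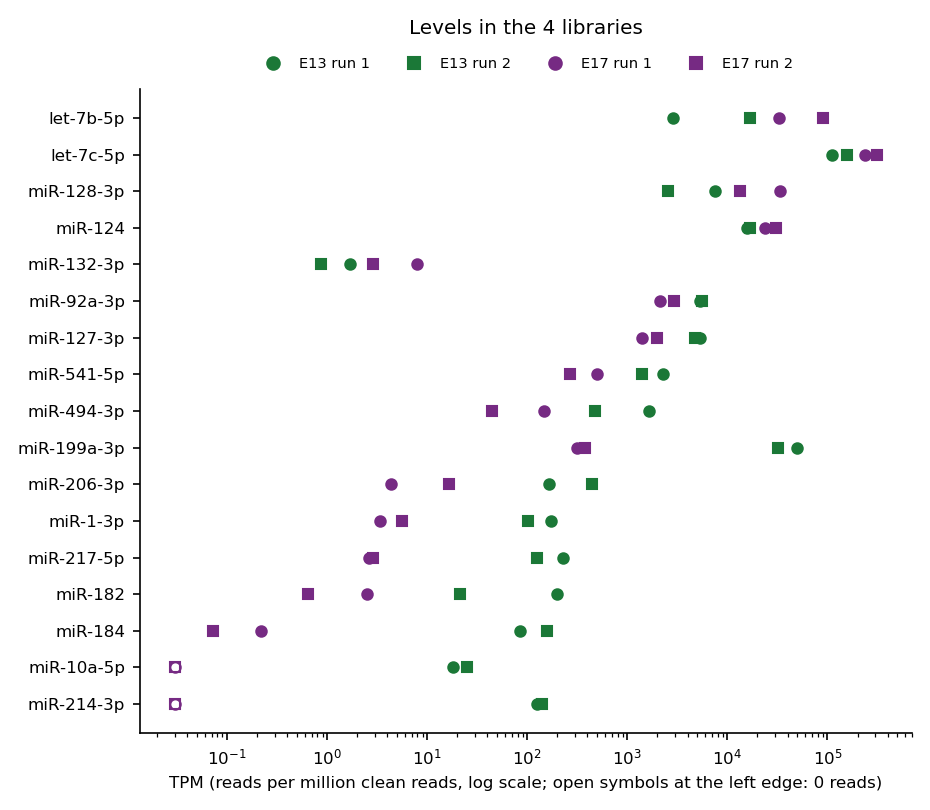
TPM on a log scale for 17 miRNAs (rows) in the 4 libraries, E13 in green and E17 in purple, run 1 as circles and run 2 as squares. let-7b-5p, miR-128-3p, miR-124 and miR-132-3p are higher in both E17 libraries, and the rows from miR-92a-3p down are lower in both, to 0 counted reads for miR-10a-5p and miR-214-3p.

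The largest differences were falls. Of the 20 miRNAs lower by a ratio of 16 in both runs, 15 belonged to a list of markers of a cell type or tissue other than cortical neurons and progenitors. These lists were chosen with earlier results of these data known, so membership is not independent of the falls. Those of the 20 with under 10 reads in an E17 run were compared through E13 alone and could not be called higher. Of 55 tested members of these marker lists 28 were lower and 1 higher, and of the other 374 tested miRNAs 122 were lower and 10 higher. After centring the marker lists held 21 lower and 5 higher, and the other miRNAs 54 lower and 45 higher. Of the 20, 7 could be compared in the P0 pair, and 2 were lower and 0 higher there, beside 22.0% lower and 4.76% higher of all miRNAs of that pair. Whether other tissue in the E13 dissection contributed to these falls was not tested.

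In the mesenchyme and meninges list the steep falls were those of 3 miRNAs from neighbouring hairpins on chromosome 13. miR-199a-3p had 50143 and 31810 TPM at E13, where it was the fourth most abundant counted miRNA by the mean of the runs, and 315 and 380 TPM at E17. No library of one stage came near the other, and the fall was 159-fold and 83.7-fold. miR-199a-5p, the other arm, went from 206 and 226 TPM to 1.20 and 2.02 TPM, 171-fold and 112-fold lower. miR-214-3p had 126 and 139 TPM at E13, 900 and 1777 reads, and no counted read at E17. With the E17 counts set to 3 reads, it was 384-fold lower in run 1 and 642-fold lower in run 2, for counted reads only. miR-199a is at chr13:77116294-77116315 for the 3p arm and miR-214-3p at chr13:77121713-77121733 of GRCr8, both inside the span of the protein-coding gene Dnm3.

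Most of that list was not called. Of 22 tested members 7 were lower and 1 (miR-497-5p) was higher, beside 35.0% lower among all miRNAs, with 5 lower and 2 higher after centring, beside 17.5% lower. miR-140-3p, a miRNA of cartilage, had 21567 and 24791 TPM at E13 and 6284 and 9003 TPM at E17. miR-152-3p had 123 and 299 TPM at E13 and 17.5 and 76.7 TPM at E17, and miR-145-5p, a smooth muscle miRNA, 15.1 and 9.40 TPM and 2.19 and 2.02 TPM. miR-143-3p, from the same cluster as miR-145, had 1501 and 419 TPM at E13 and 212 and 217 TPM at E17 and missed the limit in run 2. The summed level of the list was 83324 and 61570 TPM at E13 and 14728 and 12505 TPM at E17, mostly miR-199a-3p and miR-140-3p at E13. The only tested member with no read at E17 was miR-214-3p.

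Muscle miRNAs fell on 3 of 4 tested members, before and after centring, where 35.0% and 17.5% of all miRNAs were lower. miR-206-3p, made in skeletal muscle, had 166 and 440 TPM at E13 and 4.38 and 16.4 TPM at E17, 37.9-fold and 26.8-fold lower. miR-1-3p, made in heart and skeletal muscle, had 171 and 101 TPM at E13 and 3.39 and 5.57 TPM at E17. miR-1b, which differs from miR-1-3p by few bases and may share its reads, had 349 and 460 TPM and 15.8 and 64.9 TPM. The summed level of the muscle list was 1257 and 1141 TPM at E13 and 189 and 160 TPM at E17, of which miR-499-5p alone made 165 and 73.0 TPM at E17. Both arms of miR-133a, another defining miRNA of muscle, stayed under 0.3 TPM at E13 and had no read at E17, too few reads for a comparison.

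Epithelial miRNAs were lower on all 5 tested members, 3 of them after centring, beside 35.0% and 17.5% of all miRNAs. Of these, miR-200b-5p, miR-200c-3p and miR-205 had under 10 reads in both E17 runs. They were compared through E13 alone and could not be called higher. miR-200b-5p had 322 and 139 reads at E13 and 2 and 1 at E17. Its TPM ratio of E13 to E17 was 206 in run 1 (exact 95% interval 56.5 to 1707) and 151 in run 2 (26.6 to 5989), intervals that cover counting error only. These ratios use the reads as counted, and with the E17 reads set to 3, as in the calls, they were 137 and 50.2. miR-200c-3p had 24.8 TPM in each E13 library and 0.657 and 0.578 TPM at E17. miR-205, a marker of skin and other stratified epithelium, had 3.50 and 3.84 TPM at E13 and no read at E17. The summed level was 176 and 98.7 TPM at E13 and 25.3 and 22.1 TPM at E17, where miR-203a-3p made up most.

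The 3 precursors of the miR-183 cluster, known from hair cells, photoreceptors and olfactory neurons, gave 4 tested miRNAs, and all 4 fell before and after centring, beside 35.0% and 17.5% of all miRNAs. All 4 had under 10 reads in an E17 run, so they were compared through E13 alone and could not be called higher. miR-182 had 198 and 21.4 TPM at E13 and 2.52 and 0.651 TPM at E17. miR-183-5p had 118 and 14.2 TPM at E13 and 1.31 and 0.651 TPM at E17. The runs of E13 were themselves far apart, with a summed level of 340 TPM in run 1 and 43.5 TPM in run 2, against 3.94 and 1.52 TPM at E17. miR-183-3p had no read at E17. The cluster lies on chromosome 4 between positions 59752249 and 59756127 of GRCr8, where no gene other than miRNA genes spans miR-182 or miR-183. None of the 4 could be compared in the P0 pair, where none reached the minimum of 10 reads in both runs.

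No read was counted at E17 for the miRNAs of the Hox clusters. miR-10a-5p had 18.2 and 25.2 TPM at E13 and no read at E17, at least 55.4-fold and at least 116-fold lower. miR-10b-5p had 67.5 and 4.23 TPM at E13 and no counted read at E17, 205-fold and 19.5-fold lower by the same setting. At E10 miR-10a-5p was at 39.4 and 28.1 TPM, and at P0 it had at most 1.07 TPM. The summed level of this posterior trunk list was 86.5 and 29.9 TPM at E13 and 0 at E17, and 7 of its 10 sequences had no read in any of the 4 libraries.

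The 20 miRNAs also held 5 that are in none of the marker lists, namely miR-184, miR-216b-5p, miR-483-5p, miR-449c-5p and miR-3544, the last of the Dlk1-Dio3 region. miR-184, abundant in cornea and lens, had 84.7 and 159 TPM at E13 and only 2 and 1 reads at E17. The TPM ratio of E13 to E17 was 387 (exact 95% interval 107 to 3201) in run 1 and 2195 (394 to 86758) in run 2 on the reads as counted, and 258 and 732 with the E17 reads set to 3. miR-217-5p had 229 and 125 TPM at E13 and 2.63 and 2.89 TPM at E17, and miR-216b-5p, from the same cluster of pancreatic miRNAs, 203 and 74.2 TPM and 4.27 and 1.30 TPM. miR-375-3p, known from pancreatic islets and pituitary, had 31.2 and 45.2 TPM at E13 and 0.657 and 0.506 TPM at E17. miR-483-5p, from the Igf2 gene, had 174 and 180 TPM at E13 and 4.60 and 2.53 TPM at E17. miR-449c-5p, of a family known from multiciliated cells, had 66.4 and 79.1 TPM at E13 and 2.08 and 3.33 TPM at E17, and all 3 tested miRNAs with its seed, miR-449a-5p and miR-34c-5p included, were lower. The pancreas and pituitary list had 2 of 5 tested members lower, miR-217-5p and miR-375-3p, and 3 in neither direction, near the 35.0% lower of all miRNAs, with 2 lower and 1 higher after centring. miR-7a-5p of that list had 20158 and 1293 TPM at E13 and 2067 and 802 TPM at E17 and was not called, as its ratio in run 2 stayed under 2-fold. miR-204-5p, the most abundant miRNA of choroid plexus and retinal pigment epithelium, had 109 and 41.2 TPM at E13 and 7.23 and 12.5 TPM at E17. The summed level of its list was 112 and 50.4 TPM against 8.21 and 13.5 TPM, and that of the pancreas and pituitary list 20499 and 1492 TPM against 2148 and 841 TPM.

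No tested member of the erythroid and endothelial lists was called on the TPM scale, and 1 erythroid miRNA was higher after centring. miR-451-5p, the erythroid miRNA, had 128 and 66.8 TPM at E13 and 71.6 and 48.4 TPM at E17, and 0 of 3 erythroid members were called. The endothelial miR-126a-3p had 51.0 and 25.6 TPM at E13 and 15.9 and 18.1 TPM at E17, and 0 of 2 were called. Both tested leukocyte miRNAs, miR-142-5p and miR-146a-5p, were lower, where 35.0% of all miRNAs were, and neither was after centring. Their list summed to 83.7 and 30.9 TPM at E13 and 19.8 and 11.6 TPM at E17, the erythroid list to 144 and 70.7 TPM and 81.1 and 53.4 TPM, and the endothelial list to 148 and 54.6 TPM and 58.3 and 39.2 TPM. Of the oligodendrocyte list miR-219a-2-3p fell from 487 and 74.8 TPM to 57.2 and 10.1 TPM and miR-338-3p had 4.48 and 7.52 TPM and 6.35 and 12.5 TPM, and the list summed to 583 and 155 TPM and 96.2 and 62.5 TPM. The liver miRNA miR-122-5p had 52.5 and 15.3 TPM at E13 and 11.9 and 20.5 TPM at E17, with opposite directions in the runs.

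**Figure D3:**
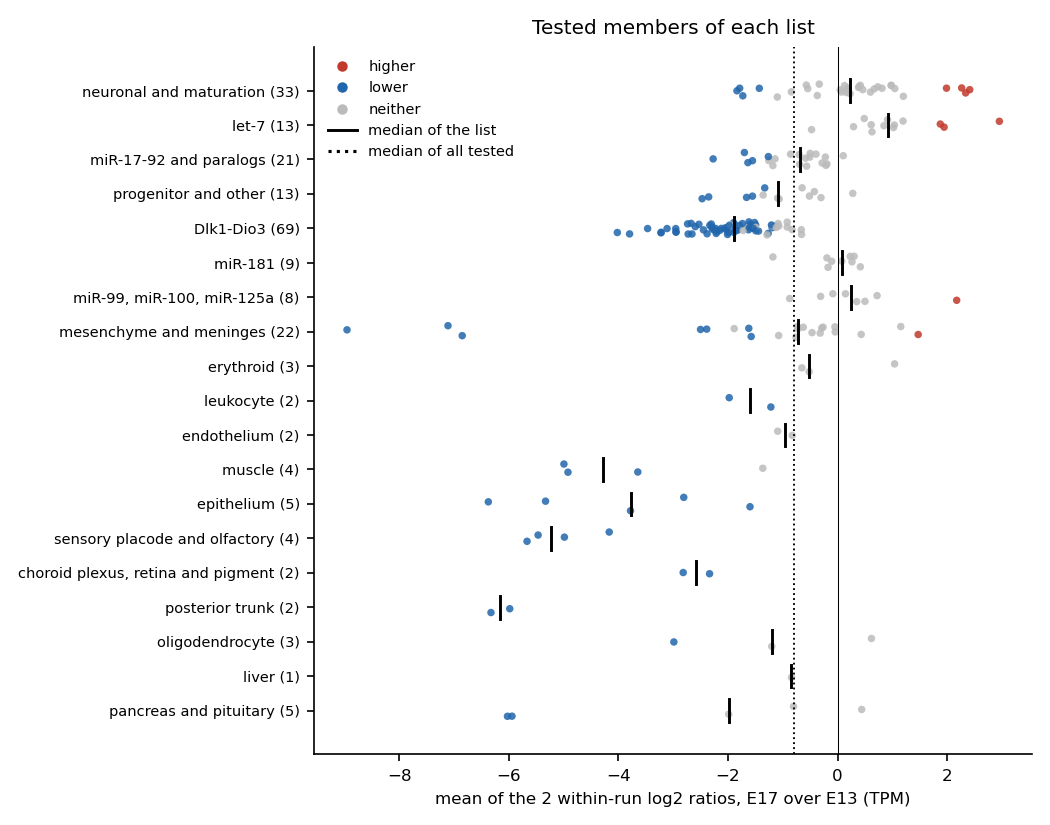
Mean of the log2 ratios of the runs (x axis, E17 over E13) for the tested members of 19 lists, with the number tested in brackets, a bar at each list's median, a line at 0 and a dotted line at the median of all 429 miRNAs (-0.80). The medians of the let-7 and neuronal lists lie to the right of the dotted line, and those of the muscle, epithelium, sensory placode and posterior trunk lists lie to its left.

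Most miRNAs of the imprinted Dlk1-Dio3 region were lower at E17. This region holds the largest cluster of miRNAs of placental mammals, which are expressed from the maternal chromosome and are abundant in brain. On GRCr8 it ran from Mir770 to Mir410 on chr6:134298094-134579828, a span of 281.7 kb with 57 precursor loci and 98 mature miRNAs. Of 77 tested miRNAs of the span 62 were lower, 0 higher and 15 neither, beside 35.0% lower among all 429 miRNAs. All 77 had a ratio below 1 in both runs, the 15 uncalled ones included. The medians were -2.24 and -1.75 on the log2 scale, below the medians over all miRNAs of -1.04 and -0.69. After centring 29 of the 77 were lower and 0 higher, beside 17.5% lower among all.

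The most abundant member, miR-382-3p, had 9157 and 5095 TPM at E13 and 2381 and 1422 TPM at E17. miR-127-3p, inside the span of the Rtl1 gene at chr6:134328510-134328531, had 5301 and 4790 TPM at E13 and 1401 and 1984 TPM at E17. The E17 libraries were below the E13 libraries for both, by 2.41-fold to 3.85-fold. miR-494-3p, at chr6:134550163-134550185 inside a non-coding gene, fell furthest in its smaller ratio among members above 100 TPM, from 1645 and 476 TPM to 146 and 44.0 TPM, 11.3-fold and 10.8-fold. miR-541-5p, at chr6:134578434-134578458, had 2281 and 1389 TPM at E13 and 494 and 267 TPM at E17, and its ratios of 4.61 and 5.19 were close to each other. miR-434-3p, at 2995 and 363 TPM and then 360 and 199 TPM, was among the 15 not called, as it missed the limit in run 2.

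The 3 clusters of the region were counted separately, beside 35.0% lower among all miRNAs and 17.5% after centring. In the cluster from Mir379 to Mir410 44 of 54 tested miRNAs were lower, and 20 after centring, with medians of -2.24 and -1.90. In the cluster from Mir770 to Mir136 13 of 17 were lower, and 6 after centring, with medians of -2.16 and -1.46. In the small cluster from Mir341 to Mir370 3 of 4 were lower, and 1 after centring. miR-3544, with 12.6 and 5.56 TPM at E13 and no counted read at E17, overlaps miR-337-5p on the opposite strand and was the lowest of the span. It was 38.4-fold and 25.6-fold lower with the E17 counts set to 3 reads. Of 69 tested members of a list of known names 54 were lower and 0 higher, with 22 lower after centring, and the listed members summed to 46943 and 27256 TPM at E13 and 11960 and 8534 TPM at E17. The P0 pair gave 25 of 62 members lower and 0 higher, where 22.0% of all 378 miRNAs of that pair were lower. After centring 14 of the 62 were lower and 0 higher, where 34 of all 378 were lower. Between samples of the same stage, members of this region were thus also lower more often than miRNAs in general.

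**Figure D4:**
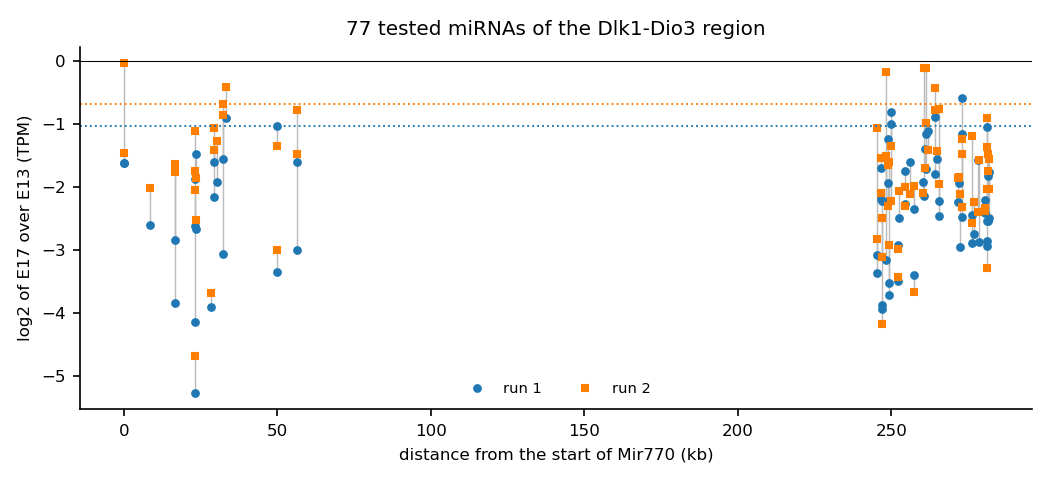
Log2 ratio of TPM at E17 over E13 in run 1 (circles) and run 2 (squares), joined by a line for each miRNA, against distance from the start of Mir770 in kb for the 77 tested miRNAs of the Dlk1-Dio3 region. All points lie below 0, and most lie below the medians over all miRNAs of -1.04 (run 1) and -0.69 (run 2), which are dotted.

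miRNAs of dividing cells were mostly not called. Of 21 tested members of the miR-17-92 family and its paralogs 5 were lower and 0 higher, a smaller share than the 35.0% lower of all miRNAs, and 1 was lower after centring, with medians of -1.13 and -0.46. miR-92a-3p, the most abundant, had 5366 and 5563 TPM at E13 and 2103 and 2916 TPM at E17, and was 2.55-fold and 1.91-fold lower without being called. miR-17-5p had 1403 and 444 TPM at E13 and 999 and 309 TPM at E17. miR-363-3p, from the paralogous cluster on chromosome X, was called lower, with 575 and 144 TPM at E13 and 232 and 61.9 TPM at E17. That cluster had 4 of 7 tested miRNAs lower and the miR-17-92 cluster itself, on chromosome 15, had 1 of 11, but after centring the counts were 0 and 1. Sequences present in both clusters, such as miR-92a-3p, cannot be assigned to one of them.

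Of 13 tested members of a second list of progenitor miRNAs 5 were lower and 0 higher, close to the 35.0% lower of all miRNAs, and 1 was in each direction after centring. miR-130b-3p had 2792 and 598 TPM at E13 and 1073 and 246 TPM at E17, and miR-301a-5p 856 and 335 TPM and 289 and 99.2 TPM. Both were lower in each run. miR-92b-3p, a miRNA of neural progenitors, had 2996 and 1330 TPM at E13 and 1866 and 488 TPM at E17 and passed in run 2 alone. miR-16-5p, made in most cells, had 3158 and 571 TPM at E13 and 3700 and 717 TPM at E17.

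Some abundant families showed larger gaps between runs than between stages. miR-181a-5p had 719 TPM in run 1 and 10006 in run 2 at E13, and 1170 and 8861 TPM at E17. Of 9 tested miR-181 members 0 were called, where 37.5% of all miRNAs were called in either direction. After centring 1 was higher and 0 lower, where 11.7% and 17.5% of all were. The sequence of the study's miR-99b primers had 59598 and 2670 TPM at E13 and 82953 and 5217 TPM at E17, again with the runs far apart and the stages overlapping. Which miRNA that sequence is was not settled, since RefSeq lists another one for miR-99b-5p, which had 3755 and 4916 TPM at E13 and 2187 and 5498 TPM at E17. In the list of miR-99, miR-100 and miR-125a 1 of 8 tested members was called, miR-99a-3p, as higher, and 4 were higher after centring, where 11.7% of all miRNAs were.

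The arms of a precursor were compared to see whether they moved together. Both arms were tested for 110 precursors, of which 25 had both arms lower, 2 (Mir132 and Mir193b) both higher, 21 one arm lower, 2 one arm higher, and 60 neither. In 0 precursors did the arms pass in opposite directions. The median difference between the arms was 0.50 log2 units, and 26 precursors differed by more than 1. Of the 104 precursors with at least 3 reads for both arms in all 4 libraries, where no count was set to 3, 23 differed by more than 1 and the median was 0.47.

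The 5′ ends, which set the seed, differed little between the stages. Of 79 named miRNAs with at least 100 reads in all 4 libraries, the mature 5′ end was in over 90% of reads for 60 and 64 at E13 and for 62 and 65 at E17. For 76 of the 79 the stage means of this share differed by under 5 percentage points, and for 0 by over 10. Some miRNAs began mostly elsewhere at both stages. The RefSeq 5′ end was in 2.36% to 10.9% of the reads of miR-140-3p, in 2.71% to 8.89% of those of miR-409a-3p and in 23.4% to 31.3% of those of miR-9a-3p. Others were too rare at E17 for this comparison. The RefSeq 5′ end was in 37.6% and 19.9% of the E13 reads of miR-217-5p, whose most frequent tag started 1 base upstream, and in 31.3% of those of miR-214-3p in run 1, with a larger share in run 2.

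Single tags were compared whether or not they had a name. In all 81507 tags were seen in both runs at E13, 54037 in both runs at E17 and 26217 in all 4 libraries. Of 13497 tags compared 1395 were higher at E17 (10.3%) and 6161 were lower (45.6%). Tags that matched no miRNA, candidate or hairpin and were no 3′ end variant of a miRNA supplied 5264 of the lower ones and 785 of the higher ones, out of 9261. They took 15.6% and 22.9% of clean reads at E13 and 6.40% and 6.36% at E17. Of the candidate miRNAs 17 of 42 compared were lower and 0 higher, close to the 35.0% lower of all miRNAs, and 7 were lower after centring.

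Tags with the first 17 bases of a mature miRNA and a different 3′ end went the other way. Of 1128 such tags 310 were higher and 109 lower, with medians of 0.70 and 0.64 on the log2 scale. Among tags counted for no miRNA, these variants included, that reached 100 TPM in both runs of the higher stage 5 were higher, and all 5 were of this kind. The 3 that rose most are shown as DNA letters, with the bases that follow the 21 bases they have in common with let-7b-5p (the first) or let-7c-5p (the others) in capitals.

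tag ending in AA, from let-7b: tgaggtagtaggttgtgtggtAA
tag ending in AT, from let-7c: tgaggtagtaggttgtatggtAT
tag ending in AA, from let-7c: tgaggtagtaggttgtatggtAA

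The let-7b tag had 7.70 and 55.7 TPM at E13 and 278 and 662 TPM at E17. The let-7c tag ending in AA had 67.4 and 66.3 TPM at E13 and 663 and 396 TPM at E17, and the one ending in AT 28.8 and 13.4 TPM and 354 and 100 TPM. All 3 tags were called higher, as was let-7b-5p, whereas let-7c-5p was not. They lay higher in both E17 libraries than in either E13 library.

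Of the same set of tags above 100 TPM 83 were lower, 2 of them with the first 17 bases of a miRNA. The 3 that fell most were nested in one another, and the longest is shown because of the share of the E13 libraries that it and its fragments took.

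longest nested tag: cgcgggaaatgtggcgtacggaag

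It had 3651 and 36172 TPM at E13 and 0 and 2.24 TPM at E17. All tags that contain it or are contained in it took 1.24% of clean reads in E13 run 1 and 6.64% in E13 run 2, and at most 35.6 TPM in any of the other 16 libraries. It matches no mature miRNA and no hairpin of the RefSeq table, and its source was not determined here. These reads count in the total of the E13 libraries that TPM divides by.

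**Figure D5:**
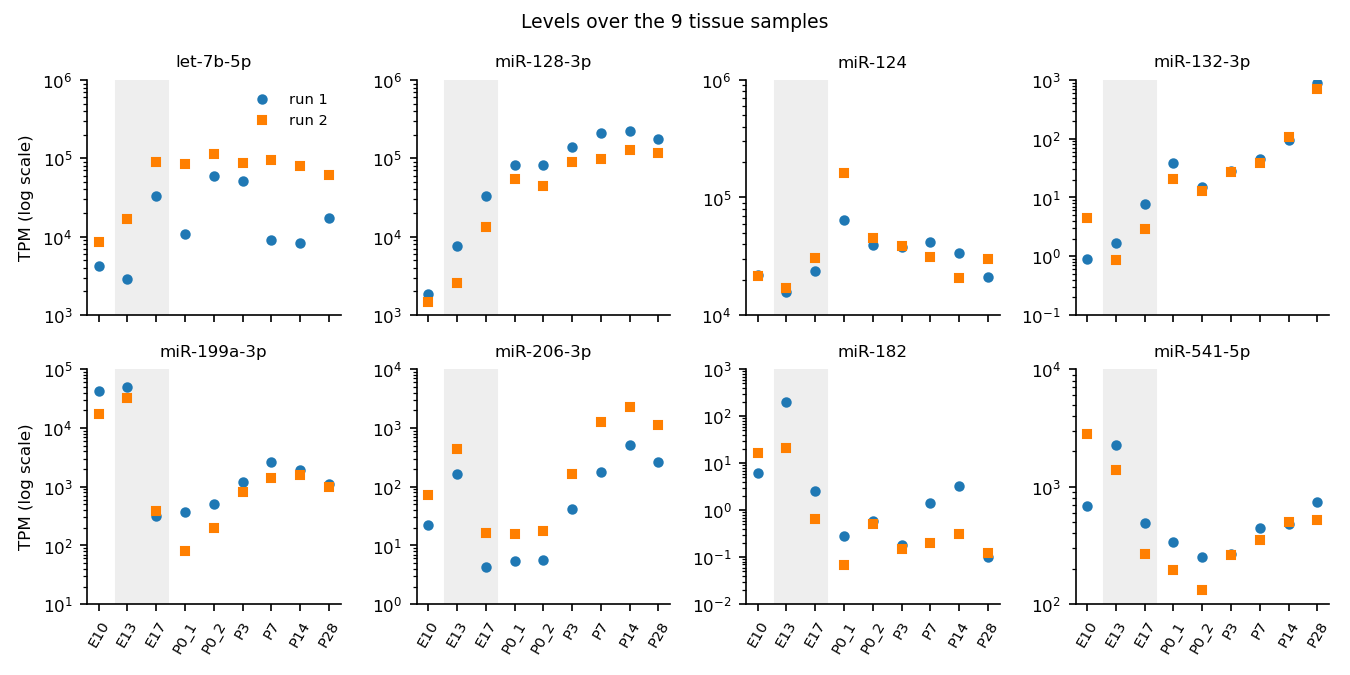
TPM on a log scale of 8 miRNAs in the 9 tissue samples in order of stage, with P0_1 and P0_2 the 2 samples of P0, run 1 as circles, run 2 as squares, and E13 and E17 shaded. miR-128-3p goes on rising from 33197 TPM at E17 to 221394 TPM at P14 in run 1, miR-199a-3p stays at or below 2628 TPM after E13, and miR-206-3p falls at E17 and is above its E13 values again at P7.

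Set beside the other stages, the step from E13 to E17 was part of a longer rise for miR-128 and miR-132, while several of the miRNAs that fell most stayed low afterwards and others did not. miR-128-3p had 1846 and 1456 TPM at E10, below its E13 values in both runs, and 221394 and 126087 TPM at P14. miR-132-3p reached 874 and 716 TPM at P28. let-7b-5p had 4209 and 8417 TPM at E10, and after E17 its run 1 values lay between 8306 and 60305 TPM and its run 2 values between 61038 and 112650 TPM. miR-124 had its highest values in the first P0 sample, 64633 and 160635 TPM, against 39726 and 45393 TPM in the second.

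miR-199a-3p was already abundant at E10, with 41905 and 17573 TPM, and lay between 79.9 and 2628 TPM in all 14 libraries from E17 on. miR-214-3p had no read at E17, P0 or P3 and at most 1.69 TPM after. miR-217-5p had 85.6 and 78.1 TPM at E10 and at most 2.89 TPM from E17 on. miR-206-3p and miR-1-3p did not stay low: miR-206-3p had 179 and 1272 TPM at P7 and miR-1-3p 174 and 171 TPM, each above its E13 level in the same run. miR-184 peaked at E13, with 0.996 and 5.60 TPM at E10 and at most 24.8 TPM after E13. miR-541-5p, of the Dlk1-Dio3 region, lay between 132 and 745 TPM in all libraries from E17 on, against 691 and 2812 TPM at E10.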

How the data were processed

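Small RNA of E13 forebrain and E17 somatosensory cortex was analysed from 4 libraries, 2 runs of 1 tissue sample per stage, with the other 14 libraries of the series as context. The authors removed low-quality reads and adaptors and collapsed identical reads. The deposited files hold unique clean tags and their read counts per library, with no normalization and no mapping, and the filtering tools are not given in the sources used here. Run 1 holds tags up to 30 nt and run 2 up to 39 nt, and other per-sample columns left unused number 0.

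Tags were matched by identity to 692 mature miRNAs of the RefSeq GRCr8 table, 2 primer sequences and 99 candidates, allowing starts up to 3 nt away from the mature start, ends up to 3 nt beyond it, and lengths from 18 nt. TPM used all clean reads. Genes spanning a miRNA were looked up by position in the RefSeq GRCr8 gene table, which gives no exons or strand.

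Ratios were taken within each run, since the labels give the runs of every tissue sample the same 2 numbers, and both had to pass 2. As a check of this pairing, the run 1 minus run 2 differences in log2(TPM + 1) of 429 miRNAs had a correlation of 0.78 between E13 and E17. Over all 36 pairs of tissue samples the median was 0.33, the lowest was 0.07 and 34 were over 0.1. A miRNA or tag needed 10 reads in both runs of a stage, and counts under 3 were set to 3. The runs are repeat sequencing of the same tissue samples, so their spread is technical. edgeR 4.0.16 (quasi-likelihood, TMM, counts of at least 10 in 2 tissue samples, runs summed) and DESeq2 1.42.0, with limma 3.58.1 loaded by edgeR in R 4.3.3, were fitted over all 9 tissue samples. Benjamini-Hochberg adjustment covered all 520 miRNAs in edgeR and, in DESeq2, the 449 of these that received an adjusted p. Python 3.11.15, pandas 2.3.3, numpy 2.4.6, SciPy 1.17.1 and matplotlib 3.10.9 were used, and the steps were tested on simulated data. Intervals are exact at 95% and cover counting error only.

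The comparison, the 19 lists and the rules were chosen with earlier results of these data known. miRNAs were named by rule: the 12 largest rises and falls above 100 TPM in both runs, the 8 most abundant at each stage, list members above 100 TPM, and 3 unnamed tags in each direction. The risers below 100 TPM, the miRNAs lower by a ratio of 16 and the rarer list members were named after their values were seen. Alternatives were other scalings, minimum levels, ratios, tag matching and single runs, and 2 of them, centring on the median and counting shared tags for each miRNA, were chosen after seeing the data.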

Additional observations from a re-analysis of the deposited data

How the results depend on the processing

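The count of 161 miRNAs past 2-fold became 54 with a minimum of 50 TPM (3 higher, 51 lower of 162), 68 at a ratio of 4 (3 and 65) and 92 with tags identical to the mature sequence only (7 and 85 of 267), each by construction a stricter count. Single runs gave 203 to 241. Under the other 11 alternatives it lay between 125 and 221, and scaling moved the split from 11 higher and 150 lower to 52 and 74 (TMM), 54 and 74 (DESeq2 size factors) or 9 and 187 (counted miRNA reads). The count of 7556 tags became 1217 with at least 100 reads and 11783 with no minimum, and single runs gave 9489 to 9671. The share of reads counted for miRNAs, 69.0% at E13 and 87.1% at E17 as means of the runs, was 22.7% and 28.9% with identical tags only.

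Pairing by run was the block of the main comparison, and without it (runs summed) 221 miRNAs and 9244 tags passed. The edgeR contrast called 0 miRNAs, with 25 at an unadjusted p under 0.05. It called 41 with the run number as a replicate block over 18 libraries, which counts the runs of a tissue sample as separate samples, 8 without TMM and 17 with DESeq2, and 0 to 11 from the libraries of a single run, all 11 lower and from run 2, that is without the run 1 libraries. The cause of these gaps was not tested. Of 85 named miRNAs 38 were called, and the mean of the runs kept its sign for all 38 under the 7 alternatives computed for them. Of the 38, 18 still passed 2-fold in both runs under TMM, DESeq2 size factors or centring, and the ratio of 1 run turned for 2, 2 and 1 of them. Under TMM and under DESeq2 size factors 73 of the 85 ratios moved by more than the spread of the runs. Depth limits the rarest: miR-132-5p, miR-184 and miR-200b-5p rest on 1 to 4 reads in a library.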
